A study of Danio rerio with 10 samples.

Results

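The DNA replication genes were followed in zebrafish ventral somite progenitors with and without a caged morpholino against *spadetail*. Members were all count records whose RefSeq symbol belongs to the replication machinery: the origin recognition complex (*orc*), the licensing factors *cdc6*, *cdt1* and *gmnn*, the numbered *mcm* genes, *cdc45* and the GINS complex (*gins*), polymerases alpha, delta and epsilon with primase (*pola*, *pold*, *pole*, *prim1*), the clamp *pcna*, its loader (*rfc*), *rpa1* to *rpa3*, *fen1*, *lig1* and ribonucleotide reductase (*rrm*). The symbols found 45 of the 14720 records, each for a different gene, and none of the 45 was at 0 in every library. No record matched *cdt1*, *fen1*, *pola1*, *pole4*, *mcm8*, *mcm9*, *mcm3ap* or *poldip3*, which were not analysed here.

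All embryos were wild type of the AB strain. The control group carried caged fluorescein-dextran (cFD) alone, and the spt_cMO group carried cFD with the *spadetail* caged morpholino, an antisense oligonucleotide that light makes active. *spadetail* is the older name of *tbx16*, which encodes a T-box factor of early mesoderm. Light of 360 nm through a diaphragm of 100 µm was aimed at the ventral somite progenitors 6 hours after fertilization (6 hpf), and the cells that then carried fluorescein were sorted at 9 hpf, late in gastrulation. Each group had 5 libraries, described in the labels as biological replicates. The controls held no morpholino, so the loss of *spadetail* and other effects of a morpholino cannot be told apart.

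DNA replication begins when the origin recognition complex, Cdc6 and Cdt1 load the MCM2 to MCM7 ring onto DNA, a step that geminin blocks by binding Cdt1. Cdc45 and GINS then join the ring to make the active helicase, RPA coats the unwound strand, and primase with polymerase alpha lays down primers that polymerases delta and epsilon extend on the PCNA clamp. Many of these genes are transcribed under E2F factors as cells enter S phase, and embryos also inherit such transcripts from the mother.

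Levels are in CPM, read counts scaled to library depth, after trimmed-mean (TMM) scaling of the libraries. CEL-seq sequences a 3′ tag of each transcript, so a level in CPM was not divided by transcript length; a comparison of levels between genes also depends on how well each record covers its 3′ end, which was not tested. Control libraries held between 3365785 and 7968446 counts and spt_cMO libraries between 2036973 and 9374914. Libraries 2, 3 and 5 of spt_cMO were shallower than every control, and library 1 was the deepest of all. Members took between 0.986% and 1.25% of the counts. A count of 3 corresponded to between 0.32 and 1.47 CPM, a limit that covers counting error only. The level of *tbx16* was 386 CPM ± 45.1 (SD, n = 5) in control and 526 CPM ± 100.3 (SD, n = 5) in spt_cMO (adjusted p = 0.0897, edgeR's quasi-likelihood test), and it passed with the replicate number as a block (adjusted p = 0.0172); since a morpholino need not lower its target's transcript, this is a weak check of the labels. All 8 presomitic mesoderm markers were detected, with summed levels of 6682 to 8778 CPM in control and 2996 to 4543 CPM in spt_cMO. The sum rests mostly on *msgn1*, with a mean of 3933 CPM over the 10 libraries and a log2 fold change of -1.53. Of the 8 markers 3 passed, *msgn1*, *tbx16l* and *her1*, all lower in spt_cMO, while *tbx16*, also listed, had a log2 fold change of 0.45. Enveloping layer and epidermis markers summed to 208 to 416 CPM and 299.8 to 580 CPM (7 of 8 with a record, *tp63* at 0 throughout), and none of them passed. Notochord markers summed to 336 to 403 CPM and 417 to 528 CPM (4 with a record, of which 2 passed). This sum rests mostly on *tbxta*, which passed, with a mean of 388 CPM over the 10 libraries and a log2 fold change of 0.38. The other that passed, *shha*, averaged 4.02 CPM, with a log2 fold change of 1.83. Blood and endothelium markers summed to 2.27 to 4.26 CPM and 2.95 to 5.23 CPM (4 of 5 with a record, none of which passed). Neural ectoderm markers summed to 304 to 415 CPM and 282 to 425 CPM (6 of 6 with a record). Of these 1 passed, *sox2*, with a log2 fold change of 0.83. Markers of the yolk syncytial layer, primordial germ cells and endoderm were also summed, and none of them passed. The part of these cell types in the replication values was not tested.

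Replication transcripts were abundant and differed little between the groups. Of the 45 members, 44 passed the filter on low counts (97.8%, against 44.6% of all records); the exception was *rrm2b*, a ribonucleotide reductase small subunit gene, with 2 to 17 counts in each library. No member passed the test between spt_cMO and control at an adjusted p of 0.05 (edgeR's quasi-likelihood test, Benjamini-Hochberg adjusted over all 6570 tested records), in either direction. Over all tested records 117 passed, 1.78%, with 0.807% higher and 0.974% lower in spt_cMO, so a share of 0 among 44 members lies near the background. An unadjusted p under 0.05 was reached by 4 members, *gins2*, *mcm2*, *rfc3* and *rrm1*, which is 9.09% beside 9.44% of all tested records. All 4 were higher in spt_cMO, while the share over all tested records counts both directions. By DESeq2, where 169 of all tested records passed (2.57%), no member did either. With the replicate number as a block, 181 of all tested records passed (2.75%) and again no member. In the authors' deposited table, where 3.58% of 6923 records passed, 1 of 44 listed members did: *gins2*, with a log2 fold change of 0.51 and an adjusted p of 0.0482. That table rests on a likelihood ratio test, unlike the tests above. For *gins2* the log2 fold change was 0.50 with the replicate block and 0.48 without it. Whether the authors used a block was not tested.

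**Figure D1:**
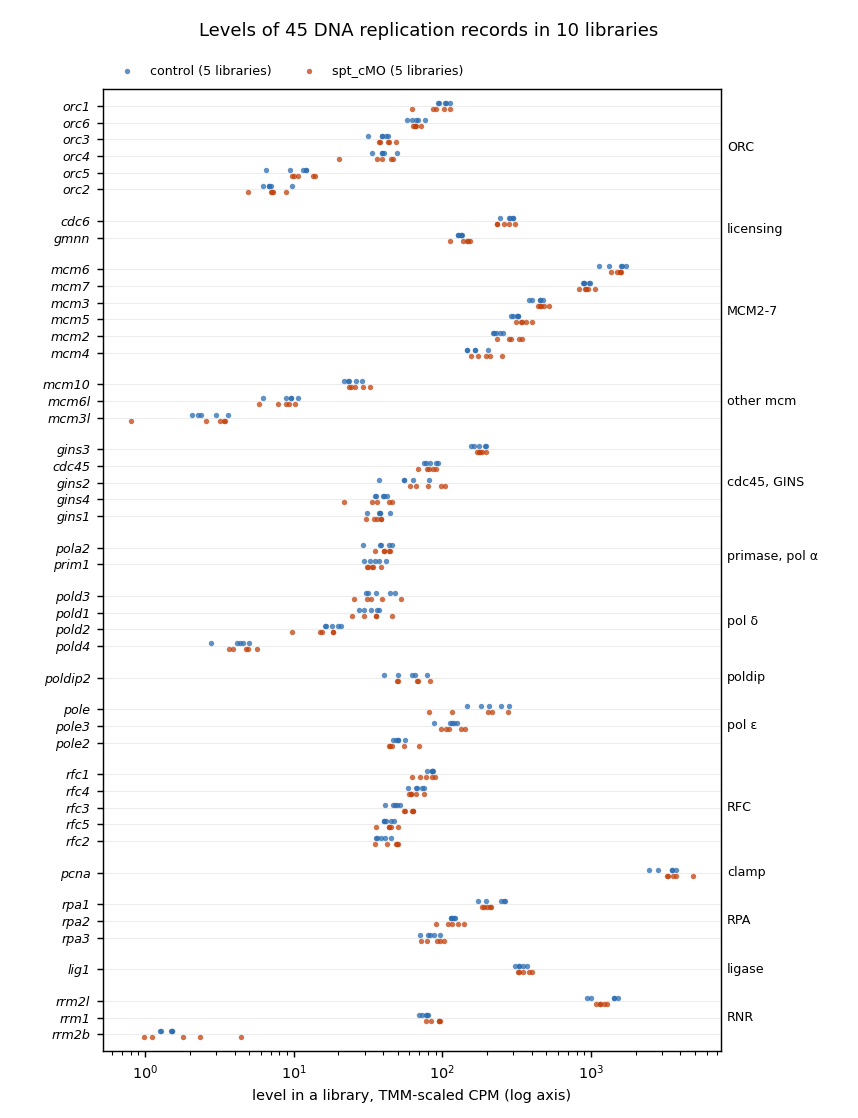
Level of each of the 45 DNA replication records in each library, in TMM-scaled CPM on a log axis, with control libraries in blue and spt_cMO libraries in orange, grouped by complex (ORC, origin recognition complex; pol, polymerase; RFC, clamp loader; RNR, ribonucleotide reductase). The levels run from *rrm2b*, at a mean of 1.77 CPM, to *pcna*, at 3474 CPM, and the groups are apart for *rfc3* alone among the 44 tested records.

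The sizes of the differences were small. The median log2 fold change (spt_cMO over control) was 0.04 over the 44 tested members and 0.00 over all tested records, and 27 of the 44 were positive (61.4%, beside 50.3% of all tested records). A log2 fold change between -0.2 and 0.2 was found for 35 of 44 members (79.5%) and for 68.7% of all tested records. The members were also counted more deeply, with a median of 68.5 CPM beside 25.6 CPM over all tested records, and the part of depth in their smaller differences was not tested. For 38 of the 44 (86.4%) the 95% interval of the fit lay within a 1.5-fold change in either direction, and for 43 within a 2-fold change, beside 63% and 90.7% of all tested records. These intervals are per record, with no adjustment for the number of records. A change above 1.5-fold lay inside the interval of the other 6: *gins2*, *pole*, *orc5*, *mcm6l*, *pold4* and *mcm3l*.

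**Figure D2:**
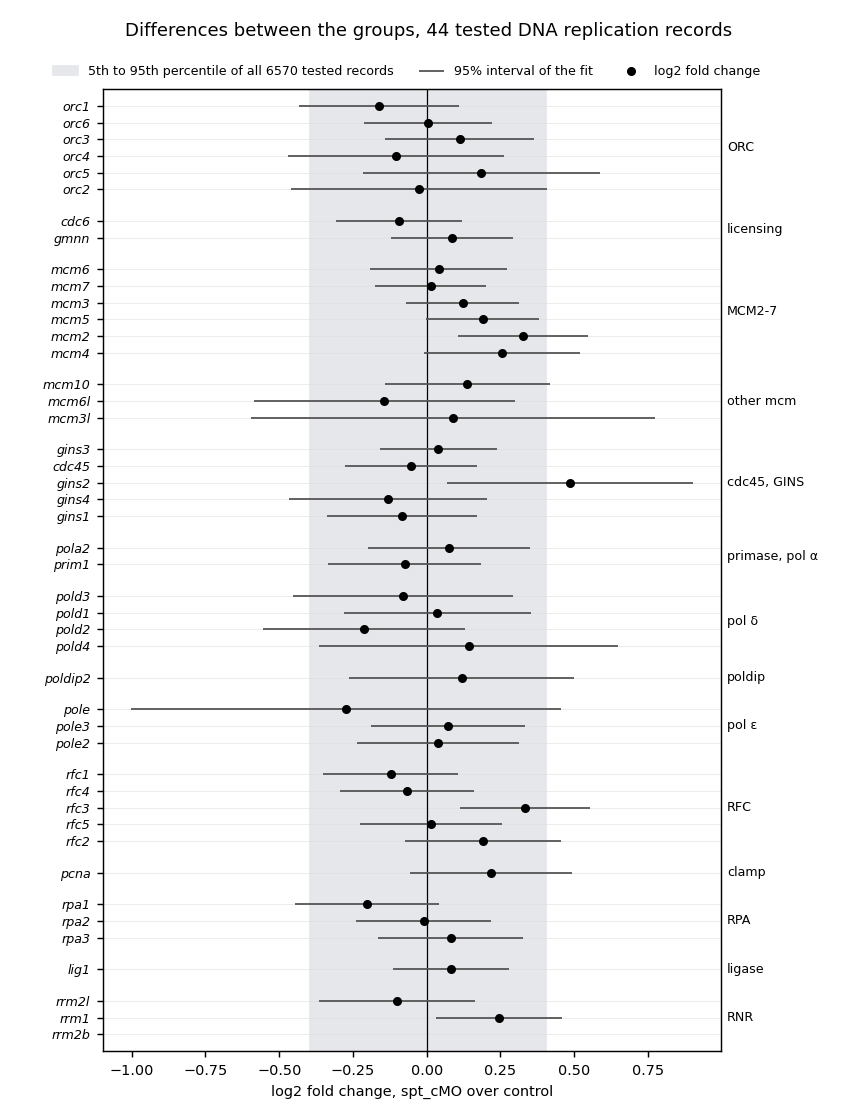
Log2 fold change of spt_cMO over control for the 44 tested DNA replication records (points) with the 95% interval of the edgeR fit (lines), grouped by complex; *rrm2b* was not tested. The grey band holds the 5th to 95th percentile of all 6570 tested records, -0.39 to 0.40, and *gins2* at 0.48 is the only member outside it.

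**Figure D3:**
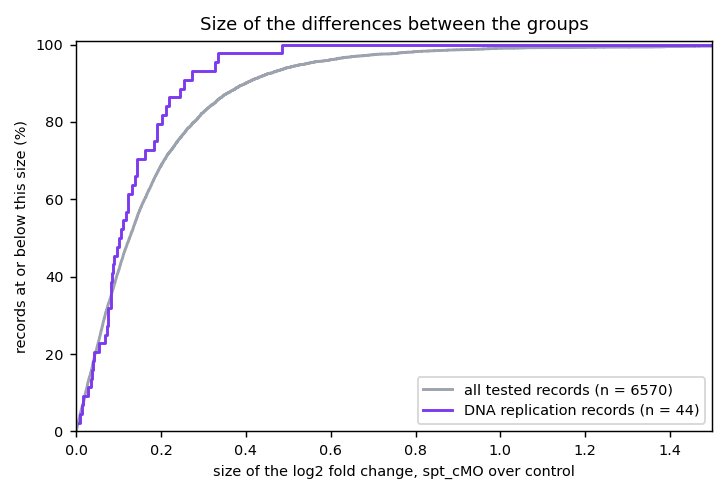
Share of records, in percent, whose log2 fold change between spt_cMO and control has at most the size on the x axis, for the 44 DNA replication records and all 6570 tested records. At a size of 0.2 the members stand at 79.5% and all records at 68.7%. The largest size among the members is 0.48, that of *gins2*.

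The origin recognition complex marks replication origins, and its 6 subunit transcripts were unequal in level. *orc1* was highest with a mean of 96.6 CPM over the 10 libraries and *orc2* lowest with 7.17 CPM, 13.5-fold apart, while *orc6* averaged 66.5 CPM, *orc3* 40.7 CPM, *orc4* 39.0 CPM and *orc5* 10.98 CPM. Their log2 fold changes ran from -0.16 for *orc1* to 0.18 for *orc5*, with 3 of 6 positive and adjusted p of 0.809 or higher. The summed level was 266 CPM ± 18.8 (SD, n = 5) in control and 256 CPM ± 19.0 (SD, n = 5) in spt_cMO.

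Of the licensing factors, *cdc6* encodes an ATPase that loads the MCM ring with the origin recognition complex. Its level (NM_001127333) was 299, 244, 283, 299.7 and 282 CPM in control libraries 1 to 5 and 259.6, 232, 232, 283 and 309.7 CPM in spt_cMO libraries 1 to 5. Both the highest value and the 2 lowest were in spt_cMO, and the groups overlapped (log2 fold change -0.10, SE 0.10, adjusted p = 0.89 in edgeR's quasi-likelihood test). The transcript of geminin, *gmnn* (NM_200086), which inhibits licensing, was at 127, 128, 133, 133 and 136 CPM in control and at 153, 148, 113, 137 and 148 CPM in spt_cMO. The controls lay close together, 4 spt_cMO libraries lay above them all and library 3 below them all (log2 fold change 0.09, SE 0.10, adjusted p = 0.897).

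The MCM2 to MCM7 genes encode the subunits of a ring that holds each protein once, but their tags differed 8.25-fold in level. Over the 10 libraries *mcm6* averaged 1501 CPM, *mcm7* 936 CPM, *mcm3* 453 CPM, *mcm5* 333 CPM, *mcm2* 265 CPM and *mcm4* 182 CPM. In both groups the order of the mean levels was the same for these 6 genes. All 6 log2 fold changes were positive, with a median of 0.16, and none passed; those of *mcm6* and *mcm7*, 0.04 and 0.01, kept their sign under both other scalings and changed it under some other alternatives. The summed level was 3229, 3542, 3833, 3851 and 3331 CPM in control libraries and 3733, 3774, 3816, 3978 and 3609 CPM in spt_cMO libraries, so the lowest values were controls and the ranges overlapped.

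*mcm2* (NM_173257) differed most in this ring. Its level was 231, 218, 245, 256 and 222 CPM in control libraries and 235, 328, 341, 288 and 281 CPM in spt_cMO libraries. The spt_cMO libraries 2 to 5 lay above every control, and library 1 lay among the controls. The mean was 234 CPM ± 15.9 (SD, n = 5) in control and 295 CPM ± 42.1 (SD, n = 5) in spt_cMO; the log2 fold change, 0.33 (SE 0.11), did not pass (adjusted p = 0.184 in edgeR's quasi-likelihood test, 0.0942 with the replicate block). It was higher in spt_cMO in 5 of 5 same-numbered pairs, as were *mcm4*, *mcm5*, *gins2*, *rfc3* and *poldip2*, 6 of the 44 tested members (13.6%) beside 5.77% of all tested records; *pold2* was lower in all 5, 1 of 44 (2.27%) beside 6.04%. Of these, named after their values were seen, *mcm4* averaged 166 CPM ± 23.1 and 198 CPM ± 36.4 (adjusted p = 0.567), and *mcm5* 311 CPM ± 15.8 and 354 CPM ± 33.4 (adjusted p = 0.533). The labels do not say what a replicate number shares, and *mcm2*, *mcm4* and *mcm5* are subunits of the same ring. Whether the members' shares differ from those of all tested records was not tested.

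The more abundant subunits showed smaller differences. *mcm6* (NM_001082849) was at 1132, 1600.4, 1723, 1626 and 1319.9 CPM in control libraries and at 1570.5, 1601, 1579.9, 1504 and 1359 CPM in spt_cMO libraries, where the values lay within the control range. *mcm7* (NM_212569) was at 975, 899.7, 903, 988 and 891 CPM in control and at 926, 916, 834, 1072 and 953 CPM in spt_cMO, with both the lowest and the highest value in spt_cMO. *mcm3* (NM_212567) was at 403, 386, 477, 452 and 453 CPM in control and at 483, 458, 522, 457 and 439 CPM in spt_cMO. Libraries 1 and 3 of spt_cMO exceeded every control, and the other 3 lay among them (log2 fold change 0.12, SE 0.09, adjusted p = 0.799). The interval of *mcm7*, -0.17 to 0.20, was the narrowest of the 3, and that of *mcm6* ran from -0.19 to 0.27.

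**Figure D4:**
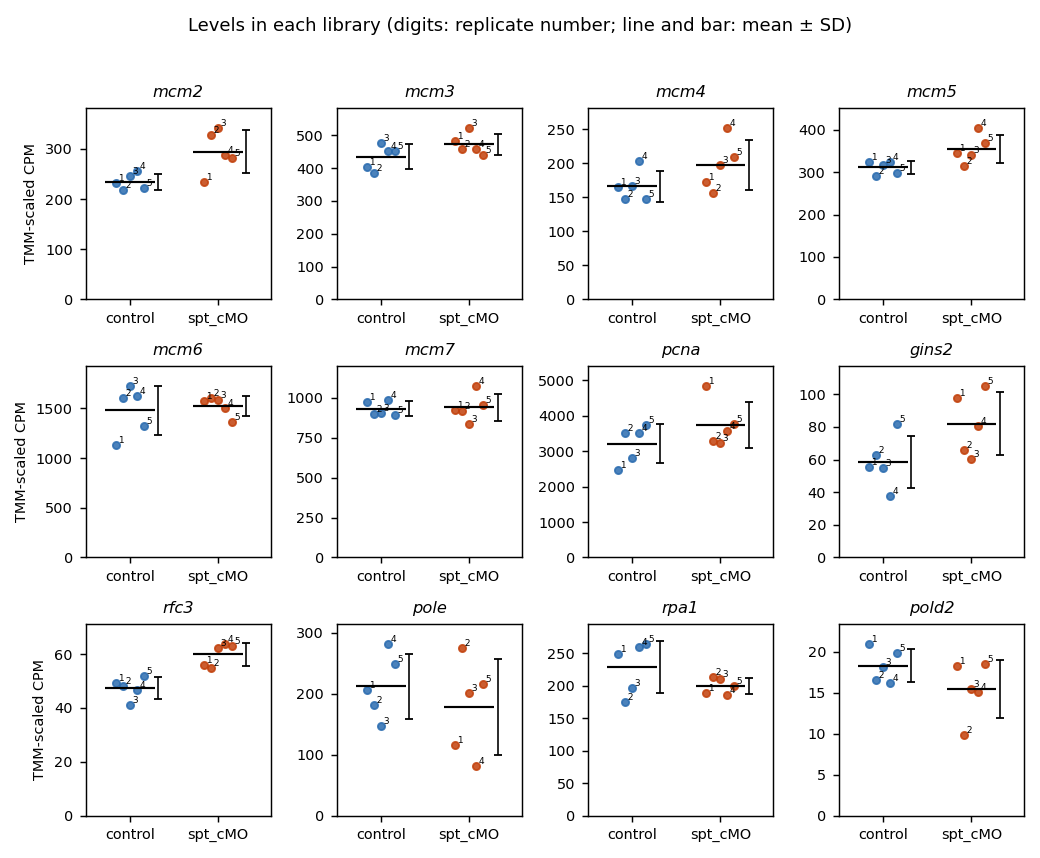
Level of 12 DNA replication records in each library, in TMM-scaled CPM on axes that start at 0; digits give the replicate number, the horizontal line the mean and the bar the SD of 5 libraries. The spt_cMO libraries of *rfc3* lie above all controls, between 54.8 and 63.7 CPM, those of *mcm2* overlap the controls through library 1, and *pole* spreads from 81.4 to 281 CPM.

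Other *mcm* genes were scarcer. *mcm10*, whose product helps activate the helicase and is not a subunit of the ring, averaged 26.0 CPM, and *mcm6l* and *mcm3l* averaged 8.7 CPM and 2.67 CPM. Those last genes resemble *mcm6* and *mcm3*, and counting could have split reads between each pair, so their single values are uncertain. *mcm3l* had as few as 2 counts in a library. Log2 fold changes of the 3 genes ran from -0.14 to 0.14 with adjusted p of 0.874 or higher.

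Cdc45 and the GINS subunits complete the helicase, and 1 of them, *gins2*, had the largest difference among the 44 members. *gins2* (NM_001024439) was at 55.2, 63.1, 55.0, 37.7 and 81.9 CPM in control libraries and at 97.5, 66.1, 60.5, 80.6 and 105.0 CPM in spt_cMO libraries. Libraries 1 and 5 of spt_cMO exceeded every control, the others overlapped them, and control library 5 was above 3 of the spt_cMO libraries. The mean was 58.6 CPM ± 16.03 (SD, n = 5) in control and 81.9 CPM ± 19.3 (SD, n = 5) in spt_cMO; the log2 fold change, 0.48 (SE 0.19), did not pass (adjusted p = 0.409 in edgeR's quasi-likelihood test). It was higher in spt_cMO in 5 of 5 same-numbered pairs, with an adjusted p of 0.0757 under the replicate block. Of the other helicase partners, *gins1*, *gins4* and *cdc45* had log2 fold changes of -0.08, -0.13 and -0.05 and *gins3* had 0.04, all with adjusted p of 0.904 or higher; whether *gins2* differed from them was not tested. In level, *gins3* led with 179.7 CPM and *gins1* was lowest with 36.8 CPM.

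Primase and polymerase alpha start new strands, and both measured subunits were near 0 in difference. *pola2* averaged 40.0 CPM and the primase gene *prim1* 34.6 CPM, with log2 fold changes of 0.07 and -0.07. Their summed level was 74.6 CPM ± 5.46 (SD, n = 5) in control and 74.6 CPM ± 3.88 (SD, n = 5) in spt_cMO.

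Polymerase delta copies the lagging strand, and its measured transcripts lay below the members' median of 68.5 CPM. *pold3* averaged 37.2 CPM and the catalytic subunit gene *pold1* 33.5 CPM, both above the median of 25.6 CPM over all tested records. *pold2* averaged 16.9 CPM and *pold4* 4.38 CPM. *pold2* (NM_213303), an accessory subunit, was at 20.9, 16.5, 18.1, 16.2 and 19.8 CPM in control libraries and at 18.3, 9.79, 15.5, 15.1 and 18.5 CPM in spt_cMO libraries. It was lower in spt_cMO in all 5 same-numbered pairs, and libraries 2, 3 and 4 of spt_cMO lay below every control. The log2 fold change was -0.21 (SE 0.16, adjusted p = 0.8 in edgeR's quasi-likelihood test), and -0.11 without spt_cMO replicate 2. *poldip2*, which the symbol rule brought in and whose product binds polymerase delta, averaged 61.8 CPM, with a log2 fold change of 0.12 (adjusted p = 0.923).

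Polymerase epsilon copies the leading strand, and the transcript of its catalytic subunit, *pole* (NM_001128523), was the most variable of the members above 5 CPM. Its level was 206, 181, 146, 281 and 248 CPM in control libraries and 117, 276, 202, 81.4 and 216 CPM in spt_cMO libraries, a spread of 3.46-fold. Libraries 1 and 4 of spt_cMO lay below every control and the other 3 lay among them. These rested on 312 to 1794 counts per library. The log2 fold change was -0.27 (SE 0.32, adjusted p = 0.904 in edgeR's quasi-likelihood test), with an interval from -1.002 to 0.46. Without spt_cMO replicate 4, 1 or 2 it was -0.09, -0.15 and -0.48, and without control replicate 4 it was -0.15. The accessory subunit genes *pole3* and *pole2* averaged 115 CPM and 51.1 CPM, spread 1.62-fold and 1.57-fold over the libraries, and had log2 fold changes of 0.07 and 0.04. Over the 44 tested members the highest library exceeded the lowest by 1.55-fold in the median.

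*pcna* (NM_131404), the sliding clamp that holds the polymerases on DNA, had the highest level of all members. Its level was 2470.2, 3525, 2809.8, 3522 and 3732 CPM in control libraries and 4833, 3292, 3238, 3559.5 and 3757 CPM in spt_cMO libraries. Library 1 of spt_cMO stood above the rest, library 5 was just above the highest control, and the other 3 lay within the control range. The mean was 3212 CPM ± 543 (SD, n = 5) in control and 3736 CPM ± 648 (SD, n = 5) in spt_cMO, and the log2 fold change was 0.22 (SE 0.13, adjusted p = 0.696 in edgeR's quasi-likelihood test). Without spt_cMO replicate 1 it was 0.11, and without control replicate 1 it was 0.14.

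The clamp loader puts PCNA onto primed DNA, and its 5 subunit transcripts were the most even in level of the complexes with 4 or more members, from 42.4 CPM for *rfc2* to 80.8 CPM for *rfc1*, 1.91-fold apart. *rfc3* (NM_201457) was at 49.4, 48.3, 41.0, 46.8 and 51.8 CPM in control libraries and at 55.9, 54.8, 62.4, 63.7 and 63.1 CPM in spt_cMO libraries. Every spt_cMO library lay above every control, which held for 1 of 44 tested members (2.27%) beside 1.43% of all tested records in this direction, 1.63% in the other and 3.06% in either. The mean was 47.5 CPM ± 4.03 (SD, n = 5) in control and 60.0 CPM ± 4.25 (SD, n = 5) in spt_cMO, with a log2 fold change of 0.33 (SE 0.11) that did not pass (adjusted p = 0.174 in edgeR's quasi-likelihood test). The other 4 subunits had log2 fold changes from -0.12 for *rfc1* to 0.19 for *rfc2*. The summed level of the 5 was 283 CPM ± 9.25 (SD, n = 5) in control and 291 CPM ± 8.66 (SD, n = 5) in spt_cMO.

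RPA binds exposed strands at the fork. *rpa1* (NM_199811), its largest subunit, was at 249, 174, 197, 260.1 and 264 CPM in control libraries and at 189, 213, 209.9, 185 and 199 CPM in spt_cMO libraries. Controls 1, 4 and 5 lay above every spt_cMO library and control 2 below them all (log2 fold change -0.20, SE 0.12, adjusted p = 0.666 in edgeR's quasi-likelihood test). *rpa2* and *rpa3* averaged 117 CPM and 85.9 CPM, with log2 fold changes of -0.01 and 0.08. The ligase gene *lig1*, whose product seals nicks between fragments, averaged 346 CPM, with a log2 fold change of 0.08 and an interval from -0.11 to 0.28.

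Ribonucleotide reductase supplies deoxynucleotides. *rrm2l* (NM_131450), a small subunit gene, was at 1429, 940.2, 1002, 1435 and 1509 CPM in control libraries and at 1143, 1223, 1159, 1081 and 1286 CPM in spt_cMO libraries. The spt_cMO libraries lay between the 2 low and the 3 high controls (log2 fold change -0.10, SE 0.13, adjusted p = 0.908 in edgeR's quasi-likelihood test), and without single controls the log2 fold change ran from -0.19 (without replicate 2) to -0.03 (without replicate 5). The large subunit gene *rrm1* averaged 75.7 CPM ± 4.40 (SD, n = 5) in control and 89.8 CPM ± 8.65 (SD, n = 5) in spt_cMO, with 4 spt_cMO libraries above every control (log2 fold change 0.24, SE 0.10, adjusted p = 0.415).

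In each library the members as a group deviated from their means by less than 0.1 log2 units. The median deviation of the 44 tested members from their means over the 10 libraries, in log2 CPM, lay between -0.09 in control library 2 and 0.04 in control library 4, and between 0.00 and 0.10 in the spt_cMO libraries, so the groups overlapped.

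Other genes of S phase and its control, from a list of E2F factors, cyclins, checkpoint, nucleotide and chromatin assembly genes outside the members, gave 61 records of 79 listed symbols, of which 57 were tested. Of these 1 rose, none fell and 56 did not pass. The list held cyclins E and A but no D cyclin. Outside it *ccnd1*, named after its values were seen, averaged 2383 CPM and was lower in spt_cMO. Its log2 fold change was -0.47 (adjusted p = 0.0393 in edgeR's quasi-likelihood test). Over all tested records 1.78% were called, so 1 among 57 lies near the background. The median log2 fold change of the list was 0.01. The riser was *tfdp2* (NM_198208), which encodes a dimerization partner of E2F factors. Its level was 68.3, 68.3, 50.8, 78.1 and 59.7 CPM in control libraries and 94.7, 95.4, 82.3, 106 and 91.7 CPM in spt_cMO libraries. Every spt_cMO library lay above every control, as for 1.43% of all tested records. The log2 fold change was 0.53 (SE 0.12, adjusted p = 0.022 in edgeR's quasi-likelihood test).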

How the data were processed

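RNA of sorted cells was measured by CEL-seq in 10 libraries, 5 per group. The authors deposited raw read counts for each RefSeq record; alignment was to Zv8 in Galaxy, using custom scripts for CEL-seq, per the labels' series design, and the use of strand is not given in the sources used here, so overlapping antisense genes cannot be told apart. Their comparison, per the file headers and the submitters' processing notes, was deposited as an edgeR table of log2 fold changes, log2 CPM means, likelihood ratio scores and p-values, raw and adjusted. Symbols came from a RefSeq table of GRCz12tu, used for names only (13986 of 14720 records matched).

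The analysis used edgeR 4.0.16 in R 4.3.3: filterByExpr (minimum count 10, minimum total 15, minimum proportion 0.7) left 6570 records, libraries were TMM-scaled, and spt_cMO was compared with control by the robust quasi-likelihood test, 2-sided, at an adjusted p of 0.05. Standard errors were derived from the F statistic. On simulated data the method recovered 54% of 1.5-fold changes and 88% of 2-fold changes, and 7 of its 175 calls were false. The records given a change were drawn at random from all tested records, so these rates are not specific to the members. No libraries had matching counts (chi-square per degree of freedom of 6.71 or more between pairs). DESeq2 1.42.0, other scalings and filters, thinned counts, a replicate block and the omission of each library were tried.

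Members and lists were chosen with earlier results of these data known. Values in all libraries were given for members that passed, the 5 most abundant, *pcna*, the licensing factors and the 3 with the largest log2 fold change in each direction. Both groups carry replicate numbers 1 to 5; over all tested records deviations from the group mean correlated between same-numbered libraries at 0.135, 0.251, 0.119, 0.203 and 0.147, all above the 0.1 set for calling numbers paired, although the labels do not say what a number shares. Control 3 and spt_cMO 1 correlated better with a library of another number (0.144 and 0.196) than with their own.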

Additional observations from a re-analysis of the deposited data

Results flagged for a closer look

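The level of *orc2*, an origin recognition subunit, was 9.81 CPM in control library 3, apart from the other 4 controls, of which the next was at 7.01 CPM; the gap was 0.769 of the group's range. The value rests on 33 counts. This was the only library to stand apart among 88 groups of 5 (44 tested members in 2 groups). Chance alone flags about 1 group in every 20, a higher rate than was seen here.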

How the results depend on the processing

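With the replicate block, 181 of all tested records passed in place of 117, and the pairing changed no call of a member. No member passed in any of 17 alternatives: DESeq2, 2 other scalings, 2 other filters, thinned counts, the replicate block and 10 fits without 1 library each. The count over all records was 83 to 125 without single libraries, and the members' median log2 fold change 0.01 to 0.07. The smallest adjusted p was 0.0606 for *mcm2*, 0.0757 for *gins2* and 0.108 for *rfc3*. Of the 13 members given in every library, *mcm6* turned negative without control replicate 1 (log2 fold change -0.0413; 0.104 without control replicate 3 at the other end). *mcm7* turned negative with no filter (-0.00802), without control replicate 5 (-0.00163) and without spt_cMO replicate 4 (-0.0366; 0.0565 without spt_cMO replicate 3 at the other end). The cause was not tested. Depth limits *mcm3l* and *rrm2b*, with 2 counts in their lowest library. Over the alternatives the log2 fold change ran from -0.16 to -0.05 for *cdc6*, from 0.05 to 0.16 for *gmnn* and from 0.11 to 0.28 for *pcna*.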

Other observations

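Of the S phase list, *rnaseh2a*, which encodes the catalytic subunit of ribonuclease H2 and was chosen after its values were seen, also varied widely. Its level was 1246, 968, 734, 1229 and 932 CPM in control libraries and 851, 1304, 405, 433 and 592 CPM in spt_cMO libraries, a spread of 3.22-fold. Libraries 3, 4 and 5 of spt_cMO lay below every control and library 2 above them all, and the difference did not pass (log2 fold change -0.51, SE 0.33, adjusted p = 0.756 in edgeR's quasi-likelihood test).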
